A study of Mus musculus with 12 samples.

Results

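The 36 genes described here cover the transcriptional response to amino acid shortage that is run by the transcription factor ATF4. They include enzymes of serine, one-carbon and proline metabolism and cytosolic aminoacyl-tRNA synthetases. They were taken by name, through their Ensembl IDs, from a table of 39179 gene IDs: 9 genes of the ATF4 response itself, 7 enzymes of serine synthesis and one-carbon metabolism, 2 enzymes of proline synthesis and 18 synthetase genes. All 36 passed the filter on low counts and were among the 12189 genes tested. RNA was sequenced from mouse CD4 T cells with the OT-II transgene, a T cell receptor specific for an ovalbumin peptide, on the C57BL/6 background. Cells of OT-II mice (WT) and of OT-II mice lacking the activating receptor NKG2D (OT-II x NKG2D-/-, KO) were grown in the same cultures with antigen-presenting cells, the peptide OVA323-339 and an antibody to CD28. Th1 cultures were given IL-2, IL-12 and an antibody to IL-4. Th17 cultures were given IL-1b, IL-6, IL-23 and antibodies to IFNg and IL-4, and IL-12 as well after the second stimulation. Polarization was applied on day 0 and day 5. On day 8 the WT cells were sorted as Thy1.2+ and NKG2D+ and the KO cells as Thy1.1+, so the lost gene, the gate on NKG2D and the congenic Thy1 marker cannot be told apart. WT and KO samples of Th1 and of Th17 cells gave 4 groups with 3 samples each. The labels do not tie samples to animals or cultures, so each p-value weighs a difference against a spread that could be technical.

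ATF4 is made when the initiation factor eIF2 is phosphorylated, for example by the kinase GCN2 on sensing uncharged tRNA. Its messenger RNA is then translated more while most others are translated less, so the level of Atf4 RNA is only part of its control. With partner proteins of the C/EBP family ATF4 binds a composite DNA element and raises the transcription of genes for amino acid synthesis, amino acid uptake and tRNA charging. Activated T cells are known to depend on serine, glycine and folate-bound carbon units for making purines and thymidylate, and some of the enzymes involved are ATF4 targets.

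The short core of that composite element, TGATGNAA, was searched on both strands in promoter windows from RefSeq, which run from 250 bases before to 50 after each gene's annotated start in GRCm38.p6. Of the 36 genes, 30 had a window and 10 of these held a match, against 4.51% of the 27025 genes in that table. Matches are shown because they differ in position, strand and letters between genes that ATF4 is known to induce. The matches describe the sequence only and are not measured binding sites, and not every match is shown. Each line gives 30 bases on the gene's strand from 5′ to 3′, with the match in capitals; where the core lies on the opposite strand, the capitals show its reverse complement.
Trib3: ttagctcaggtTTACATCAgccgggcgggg
Chac1: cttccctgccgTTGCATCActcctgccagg
Asns: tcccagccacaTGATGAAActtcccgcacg
Vldlr: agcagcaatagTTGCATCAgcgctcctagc
Pycr1: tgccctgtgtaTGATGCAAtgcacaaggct
Aars: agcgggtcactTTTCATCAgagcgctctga
Gars: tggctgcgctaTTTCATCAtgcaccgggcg
Iars: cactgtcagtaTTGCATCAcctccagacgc
Tars: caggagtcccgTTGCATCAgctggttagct
Yars: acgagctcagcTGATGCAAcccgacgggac

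The stretch of Asns lies at chr6:7693214-7693243 on the minus strand, and its match begins 23 bases before the start that RefSeq gives. In the GENCODE coordinates Asns starts at chr6:7693254, so there the stretch lies inside the gene. That of Tars lies at chr15:11399655-11399684, also on the minus strand, with the match 15 bases before the RefSeq start, which also differs from the GENCODE start. The match of Trib3, at chr2:152344028-152344057 on the minus strand, lies 15 bases after the start that RefSeq gives, which differs from the start in the GENCODE coordinates. Among the 20 genes with a window and no match were Atf4, Atf5, Ddit3, Sesn2, Cebpb and the 7 serine and one-carbon genes. Hars, Lars, Nars, Rars, Vars and Wars were not in the table of windows.

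The libraries differed in depth. The Th1 libraries held 9108203 to 12688637 counts. As deep were Th17 WT 1 and the KO libraries Th17 KO 1 and Th17 KO 3, with 10405299 to 11587560 counts. The totals were only 2731909 in Th17 WT 2, 1647232 in Th17 WT 3 and 1722228 in Th17 KO 2, of which a single gene ID took 18.3%, 48.1% and 51.0%, against at most 0.0083% elsewhere. These 3 are called the shallow libraries. Levels are given as CPM, read counts scaled to the normalised library size, and 3 counts correspond to 0.208 to 0.284 CPM in the deep libraries and to 1.19 to 3.15 CPM in the shallow ones. Mitochondrial transcripts made up 14.2 to 15.1% of the remaining counts in Th1 and 16.9 to 20.8% in Th17. Klrk1, the NKG2D gene, was at 128 to 161 CPM in the 6 WT libraries and at 1.60 to 5.63 CPM in the 6 KO libraries. The 6 Th17 markers summed to 0.943 to 5.07 CPM in Th1. In Th17 they summed to 66.4 to 81.6 CPM in WT and to 139 to 140 CPM in KO. Ifng was lower in Th17, whereas the Th1 markers Cxcr3 and Il12rb2 were higher there. Within Th17, 4 of 5 tested Th17 markers were higher in KO than in WT, and 2 of 4 Th1 markers were lower. These were called by edgeR at an adjusted p under 0.05, against 1.81% of all genes higher and 4.02% lower. Among the Th17 WT libraries only Th17 WT 1 was deep, so these marker calls depend on the shallow libraries for their WT spread. The part of depth in them was not tested. The part of these marker differences in the other KO differences of Th17 cells was not tested. The 6 T cell markers summed to 1840 to 2570 CPM. Markers of B cells (0.208 to 0.969 CPM in Th1, 0.763 to 4.79 CPM in Th17), NK cells (0.157 to 1.05 CPM over all libraries, with Ncr1 at 0 in all 12) and myeloid and dendritic cells (4.79 to 6.94 CPM in Th1, 7.47 to 11.6 CPM in Th17) were low beside them, and Lyz2, Csf1r, Adgre1 and Itgax had at most 4 counts in any library. Of the 8 myeloid and dendritic genes, 4 passed the filter on low counts. Of these 4, 3 were higher in Th17 than in Th1 in WT and 1 in KO (edgeR adjusted p under 0.05). Zbtb46 was higher in both genotypes. The 2 CD8 markers summed to 2.08 to 3.70 CPM in Th1 and to 1.04 to 6.61 CPM in Th17. Cd8b1, the 1 of them tested, was higher in Th17 in both genotypes (edgeR adjusted p = 0.0092 in WT and 0.000691 in KO). The shallow libraries were all Th17, and the mitochondrial share, the B and myeloid marker sums and Cd8b1 were higher in Th17. Their part in the Th17 differences was not tested.

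Th17 cells held less RNA of most of these genes than Th1 cells, in both genotypes. In WT cells 23 of the 36 genes were lower in Th17 and 2 were higher, by edgeR's quasi-likelihood test at an adjusted p under 0.05. In KO cells 26 were lower and 2 higher. Among all genes tested, 23.6% were lower and 23.5% higher in WT, and 26.7% were lower and 26.9% higher in KO. The median log2 fold change over the 36 genes was -0.43 in WT and -0.48 in KO, beside medians of -0.008 and 0.001 over all genes tested. Lower in both genotypes were 22 of the 36 and higher in both were 2, each against 19.9% of all genes. CPM ranges of the groups did not overlap for 22 genes lower and 3 higher in WT (27.5% and 24.6% of all genes), and for 27 lower and 3 higher in KO (28.6% and 27.1%). In RNA from whole samples, fewer cells expressing a gene and less RNA per cell cannot be told apart. Leaving out the 3 shallow libraries gave 23 lower in WT, where a single Th17 library is then left and is assumed to vary like the other groups, and 26 lower in KO.

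**Figure D1:**
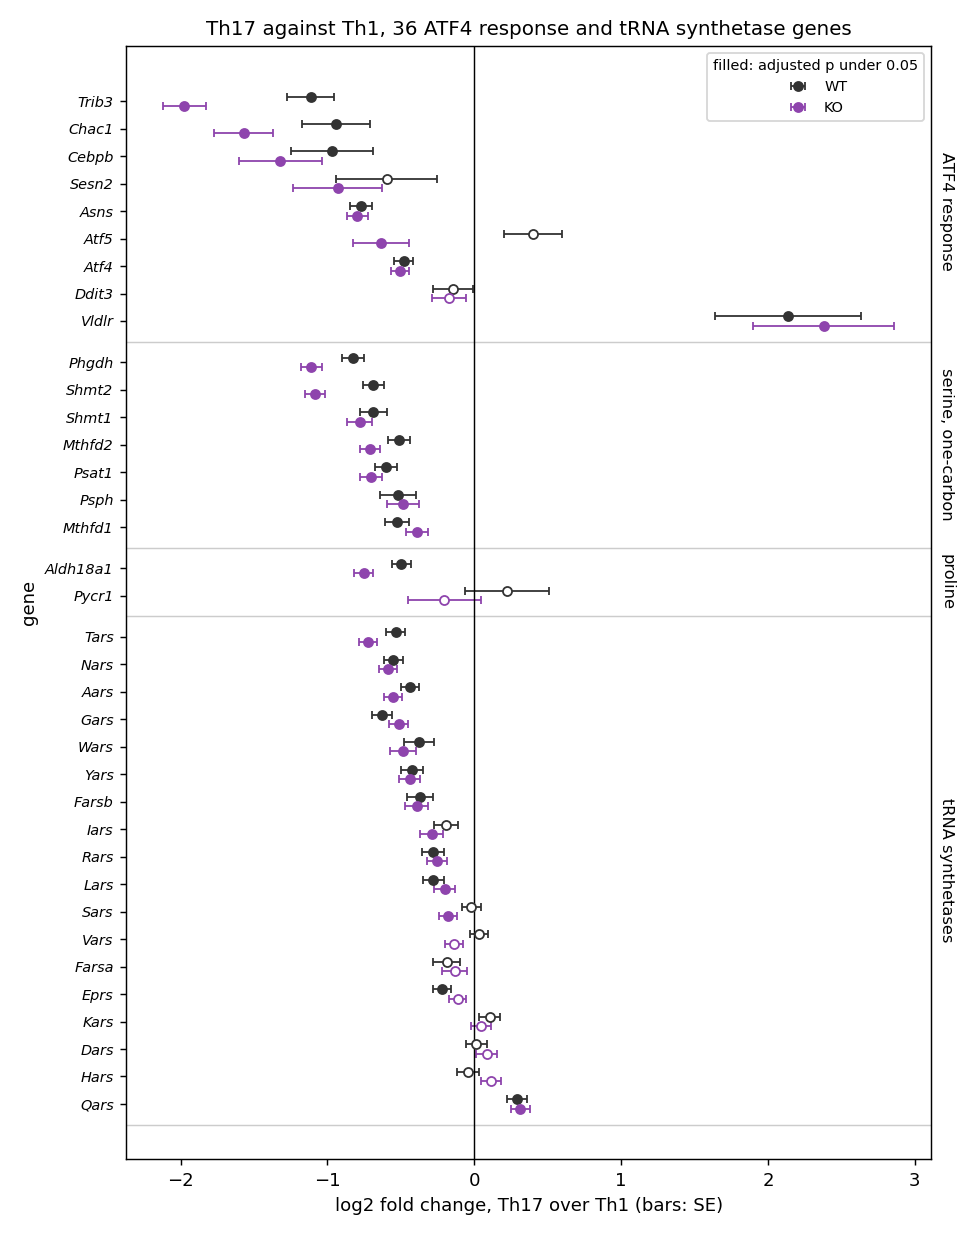
Log2 fold change of Th17 over Th1 cells (horizontal axis, bars show the SE) for the 36 genes in WT (black) and KO (purple), ordered by role and by the KO value; filled points passed an adjusted p of 0.05. Most points lie left of 0, Trib3 lies farthest left at -1.97 in KO, and Vldlr and Qars are the 2 genes with filled points right of 0.

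Atf4 (ENSMUSG00000042406, chr15:80255184-80257541 in GRCm38) was measured at 302, 323 and 318 CPM in Th1 WT, at 330, 316 and 307 in Th1 KO, at 221, 218 and 243 in Th17 WT and at 225, 207 and 233 in Th17 KO. Every Th17 library lay below every Th1 library. The level fell 1.40-fold in WT (-0.48 ± 0.06 on the log2 scale with its standard error, adjusted p = 6.63e-07) and 1.42-fold in KO (-0.50 ± 0.06, adjusted p = 1.64e-07; edgeR). Per kilobase of exon Atf4 was the most abundant of the 36 genes, at 133 CPM per kb in Th1 WT and 96.4 in Th17 WT, while Vldlr was the least abundant in Th1 WT at 0.628 CPM per kb.

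Trib3 (chr2:152337422-152344032) encodes a pseudokinase that is induced by ATF4 and restrains it. It was at 16.1, 17.7 and 17.6 CPM in Th1 WT, 23.2, 23.8 and 18.7 in Th1 KO, 8.39, 7.51 and 5.19 in Th17 WT and 5.76, 3.15 and 5.63 in Th17 KO. The Th17 libraries were all below the Th1 libraries, and the 3.15 CPM of Th17 KO 2 rest on 3 counts. Trib3 fell 2.16-fold in WT (-1.11 ± 0.16, adjusted p = 2.57e-06) and 3.93-fold in KO (-1.97 ± 0.15, adjusted p = 2.2e-11; edgeR). Chac1, which encodes an enzyme that breaks down glutathione, was at 12, 13.2 and 13.1 CPM in Th1 WT, 17.3, 19 and 12.3 in Th1 KO, 6.02, 6.72 and 11.4 in Th17 WT and 6.77, 2.10 and 4.45 in Th17 KO. The groups did not overlap, although Th17 WT 3 came close to the lowest Th1 library, and the 2.10 CPM of Th17 KO 2 rest on 2 counts. Its log2 fold change was -0.94 ± 0.23 in WT (adjusted p = 0.00188) and -1.57 ± 0.20 in KO (adjusted p = 1.18e-06; edgeR). Without Th17 WT 1 the WT difference of Chac1 did not pass (adjusted p = 0.153).

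Asns, asparagine synthetase, was at 87.4, 94.5 and 92.0 CPM in Th1 WT, 96.3, 98.6 and 99.7 in Th1 KO, 55.3, 49.4 and 54.0 in Th17 WT and 52.6, 56.7 and 60.6 in Th17 KO. The 2 cell types were far apart in both genotypes, with a fall of 1.71-fold in WT (-0.77 ± 0.08, adjusted p = 7.18e-09) and 1.73-fold in KO (-0.80 ± 0.07, adjusted p = 6.7e-10; edgeR). Cebpb, a C/EBP family transcription factor, was low throughout, from 7.11 to 16.3 CPM in Th1 and from 2.96 to 9.34 CPM in Th17. Its ranges overlapped, and its call in WT (-0.97 ± 0.28, adjusted p = 0.00866) did not pass without Th17 WT 1 (adjusted p = 0.144) or without the shallow libraries (adjusted p = 0.0623). Within KO the ranges did not overlap, at 7.11 to 9.87 CPM in Th1 and 2.96 to 6.30 CPM in Th17. The call of Cebpb in KO was -1.32 ± 0.28 (edgeR adjusted p = 0.000719). Exons of the opposite-strand gene Tmem189 cover 20.7% of the exonic length of Cebpb, so reads of the 2 genes may be mixed there.

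Sesn2, a sestrin that senses leucine and restrains mTORC1, was at 53.5, 37.3 and 31.1 CPM in Th1 WT, 65.8, 48.0 and 38.8 in Th1 KO, 28.4, 23.3 and 26.0 in Th17 WT and 32.8, 12.6 and 22.3 in Th17 KO. It varied widely within each Th1 group and passed in KO alone (-0.93 ± 0.30, adjusted p = 0.0308, against -0.59 ± 0.34 and 0.196 in WT; edgeR). The KO call of Sesn2 did not pass without the shallow libraries (adjusted p = 0.0988), nor without Th1 KO 1, Th1 KO 2 or Th17 KO 3 (0.082, 0.0565 and 0.143), with no low-count filter (0.053) or with the 2 groups fitted alone (0.075). Atf5, a transcription factor related to ATF4 and controlled in a like manner, was at 6.02, 7.91 and 7.70 CPM in Th1 WT, 8.41, 9.80 and 6.54 in Th1 KO, 9.41, 9.89 and 9.34 in Th17 WT and 4.75, 8.40 and 5.54 in Th17 KO. Its Th17 WT libraries were above Th1 WT without passing (0.40 ± 0.20, edgeR adjusted p = 0.0953). In KO, where the ranges overlapped, Atf5 was lower in Th17 (-0.64 ± 0.19, edgeR adjusted p = 0.00636), but not without Th1 KO 2 or Th17 KO 1 (0.0601 and 0.0845). Ddit3, which encodes CHOP, a factor linked to cell death under prolonged stress, did not pass in either genotype. It was at 21.8, 22.0 and 18.9 CPM in Th1 WT and at 19.3, 14.2 and 27.0 in Th17 WT, and its log2 fold change was -0.14 ± 0.14 in WT and -0.17 ± 0.12 in KO (edgeR adjusted p = 0.415 and 0.232).

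Vldlr, a lipoprotein receptor gene that ATF4 induces under stress in some other cells, went the other way. It was at 8.85, 5.33 and 4.79 CPM in Th1 WT, 8.41, 4.93 and 4.12 in Th1 KO, 37.9, 13.8 and 11.4 in Th17 WT and 39.6, 13.7 and 23.2 in Th17 KO. All Th17 libraries exceeded all Th1 libraries, and the 3 shallow libraries were the lowest of the Th17 libraries. The rise was 4.40-fold in WT (2.14 ± 0.50, adjusted p = 0.00705) and 5.21-fold in KO (2.38 ± 0.48, adjusted p = 0.00285; edgeR). The WT call of Vldlr rested on Th17 WT 1 (adjusted p = 0.319 without it), while without the shallow libraries the difference was 2.58 in WT and 2.45 in KO.

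The 7 serine and one-carbon genes were lower in Th17 in both genotypes, with log2 fold changes from -0.83 to -0.51 in WT and from -1.11 to -0.39 in KO, and the CPM ranges of Th1 and Th17 did not overlap within either genotype. All 7 passed without the shallow libraries too. Phgdh (chr3:98313170-98339990), which catalyses the committed step of serine synthesis from glucose, was at 185, 201 and 188 CPM in Th1 WT, 220, 221 and 208 in Th1 KO, 107, 117 and 96.6 in Th17 WT and 103, 85.1 and 103 in Th17 KO. All 6 Th17 libraries were below all 6 Th1 libraries, a fall of 1.77-fold in WT (adjusted p = 8.25e-10) and 2.16-fold in KO (adjusted p = 9.82e-13; edgeR). The next enzymes of the pathway, Psat1 and Psph, had log2 fold changes of -0.60 ± 0.07 and -0.52 ± 0.12 in WT and of -0.70 ± 0.07 and -0.48 ± 0.11 in KO. Exons of the opposite-strand chaperonin gene Cct6a cover 10.4% of the exonic length of Psph and that gene had 25768 counts against 3559, so the value of Psph is uncertain.

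Shmt2 (chr10:127517123-127522444), the mitochondrial enzyme that splits serine into glycine and a folate-bound carbon unit, was at 149, 152 and 152 CPM in Th1 WT, 168, 172 and 156 in Th1 KO, 93.3, 92.9 and 96.6 in Th17 WT and 76.5, 91.4 and 75.4 in Th17 KO. The 4 groups formed 4 separate bands, with Th17 KO lowest and Th1 KO highest. Its fall in Th17 was 1.61-fold in WT (adjusted p = 1.02e-08) and 2.12-fold in KO (adjusted p = 8.59e-13; edgeR). The cytosolic counterpart Shmt1 fell 1.61-fold in WT and 1.72-fold in KO. Mthfd2, the mitochondrial dehydrogenase and cyclohydrolase of the folate cycle, fell 1.43-fold and 1.64-fold.

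Mthfd1, the cytosolic enzyme that passes carbon units on to purine and thymidylate synthesis, was at 69.1, 74.1 and 73.7 CPM in Th1 WT, 81.6, 82.6 and 87.7 in Th1 KO, 52.0, 49.0 and 44.6 in Th17 WT and 58.7, 64.1 and 69.5 in Th17 KO. Here KO cells lay above WT cells in both cell types. Its log2 fold change of Th17 over Th1 was -0.53 ± 0.08 in WT (adjusted p = 7.75e-06) and -0.39 ± 0.07 in KO (adjusted p = 7.51e-05; edgeR). Of the proline genes, Aldh18a1, which starts proline synthesis from glutamate, was at 155 to 176 CPM over the Th1 libraries and at 102 to 118 CPM over the Th17 libraries, a fall of 1.41-fold in WT and 1.69-fold in KO. Pycr1, which completes that synthesis, was at 1.58 to 6.30 CPM in all libraries and passed in neither genotype (0.22 ± 0.28 in WT, -0.20 ± 0.25 in KO).

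**Figure D2:**
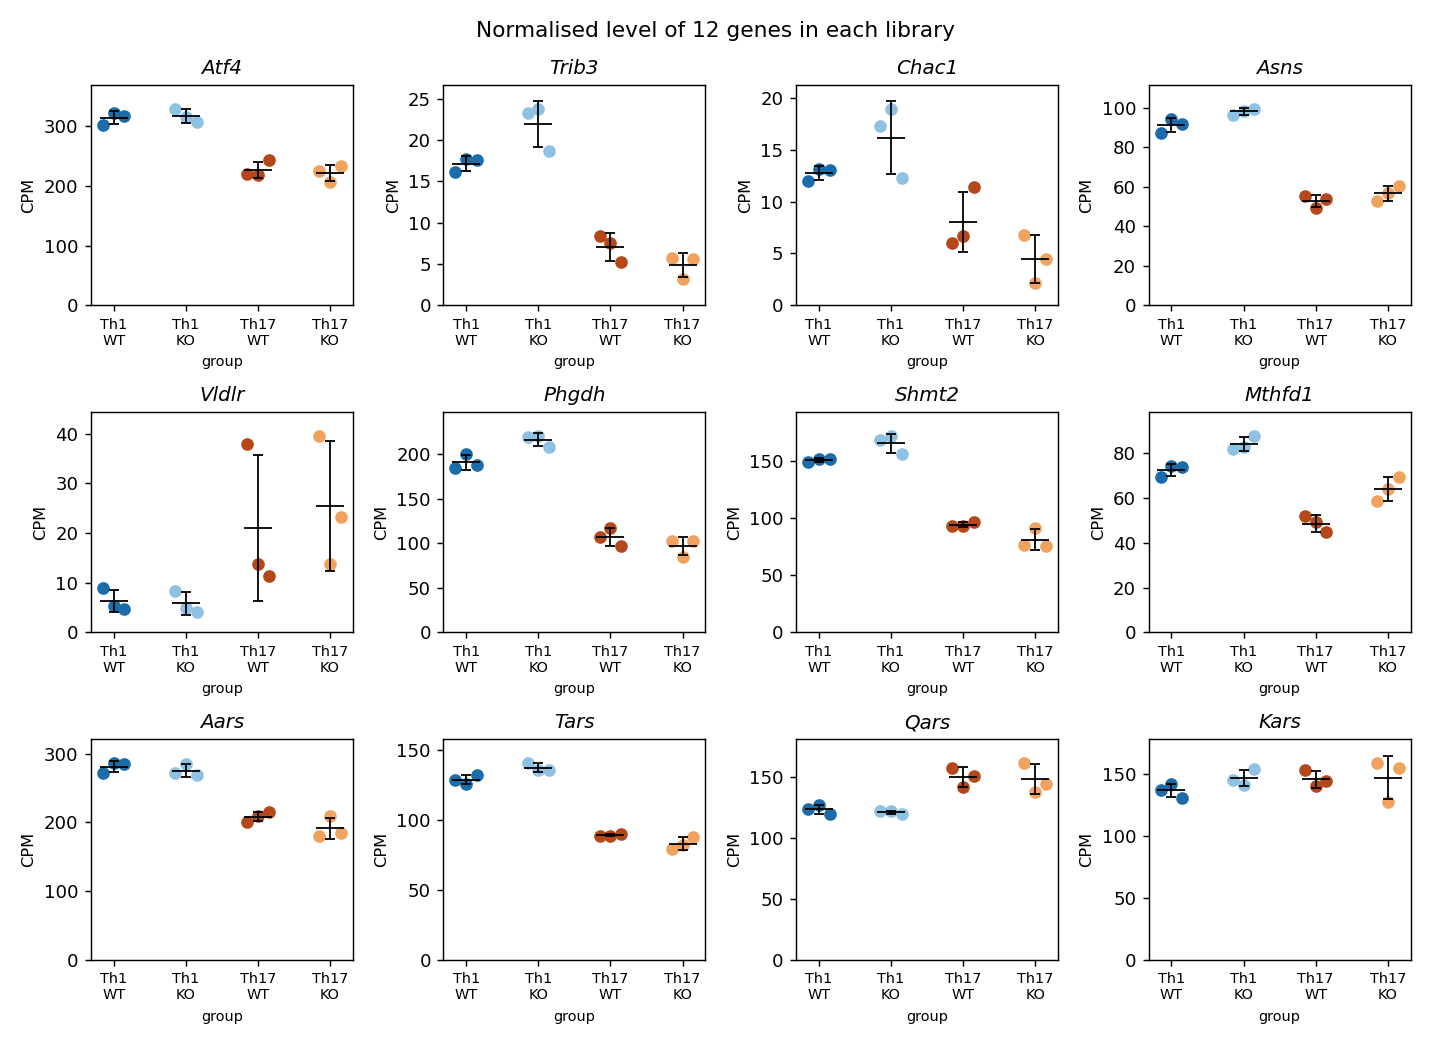
Normalised level (CPM, linear axis from 0) of 12 genes in each library of the 4 groups; points are libraries and black bars show the mean and SD of 3 samples. Atf4, Trib3, Chac1, Asns, Phgdh, Shmt2, Aars and Tars are lower in every Th17 library than in any Th1 library, Vldlr and Qars are higher, and Kars overlaps.

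Synthetases load each tRNA with its amino acid. Of the 18 genes, 10 were lower and 1 was higher in Th17 WT cells, and 11 were lower and 1 higher in Th17 KO cells. Over all genes tested, 23.6% were lower and 23.5% higher in WT, and 26.7% and 26.9% in KO. The median log2 fold change of the 18 synthetase genes was -0.25 in WT and -0.23 in KO. These medians were closer to 0 than the -0.60 and -0.71 of the serine and one-carbon genes. Without the shallow libraries 11 were lower in WT and 12 in KO. The strongest were Gars, Nars, Tars and Aars, for glycine, asparagine, threonine and alanine. Tars was at 129, 126 and 132 CPM in Th1 WT, 141, 136 and 136 in Th1 KO, 88.9, 88.6 and 90.3 in Th17 WT and 79.1, 81.9 and 88.2 in Th17 KO. The Th17 values stayed within a narrow band well below Th1, with log2 fold changes of -0.54 ± 0.07 in WT (adjusted p = 2.68e-07) and -0.72 ± 0.06 in KO (adjusted p = 5.13e-10; edgeR).

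Gars was at 237, 244 and 263 CPM in Th1 WT, 256, 240 and 261 in Th1 KO, 172, 153 and 147 in Th17 WT and 176, 180 and 177 in Th17 KO. Nars was at 182 to 206 CPM over the 6 Th1 libraries and at 127 to 142 CPM over the 6 Th17 libraries. Aars was at 272, 287 and 285 CPM in Th1 WT, 272, 286 and 269 in Th1 KO, 201, 210 and 215 in Th17 WT and 181, 209 and 184 in Th17 KO. None of the 3 overlapped between the cell types. Log2 fold changes in WT and KO were -0.63 and -0.51 for Gars, -0.55 and -0.59 for Nars and -0.44 and -0.55 for Aars, each with an SE of 0.06 or 0.07 and an edgeR adjusted p of 2.61e-06 or less.

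Yars, Wars, Farsb, Rars and Lars, for tyrosine, tryptophan, the beta chain for phenylalanine, arginine and leucine, were also lower in both genotypes, by -0.42 to -0.28 in WT and -0.48 to -0.20 in KO. In WT cells the calls of Lars, Rars and Wars did not pass without Th17 WT 1 (adjusted p = 0.0935, 0.116 and 0.063). In KO cells that of Lars did not pass in DESeq2 (adjusted p = 0.0509) or without Th1 KO 1 or Th17 KO 1 (0.0675 and 0.0575). Eprs passed in WT alone (-0.22 ± 0.06, adjusted p = 0.00476). Iars (-0.29 ± 0.08, adjusted p = 0.00254) and Sars (-0.18 ± 0.06, adjusted p = 0.0155) passed in KO alone, although the difference between the genotypes did not pass for any of the 3 (interaction adjusted p of 0.594 or more; edgeR). Without Th17 KO 3 the call of Sars did not pass (adjusted p = 0.0659). Iars was close to the threshold in WT (-0.19 ± 0.08, edgeR adjusted p = 0.0517). There it passed as lower in 8 of 19 alternatives, among them limma-voom (0.0341).

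Qars (chr9:108507706-108515941), the glutamine enzyme, was the exception. It was at 124, 127 and 120 CPM in Th1 WT, 122, 122 and 120 in Th1 KO, 158, 142 and 151 in Th17 WT and 162, 138 and 145 in Th17 KO. Every Th17 library was above every Th1 library, a rise of 1.22-fold in WT (0.29 ± 0.07, adjusted p = 0.000867) and 1.24-fold in KO (0.31 ± 0.07, adjusted p = 0.00024; edgeR), and it passed in all 19 alternatives in each genotype. Dars, Farsa, Hars, Kars and Vars did not pass in either genotype; Dars was at 118 to 151 CPM, Farsa at 33.2 to 59.3 CPM and Hars at 82.0 to 121 CPM over the 12 libraries. Kars, for lysine, was at 137, 142 and 131 CPM in Th1 WT and at 153, 140 and 144 in Th17 WT (0.10 ± 0.07, edgeR adjusted p = 0.24). Vars, for valine, was at 287 to 297 CPM in Th1 WT and 289 to 311 CPM in Th17 WT (0.03 ± 0.06, edgeR adjusted p = 0.681). In KO its log2 fold change was -0.14 ± 0.06 (adjusted p = 0.0548), and it passed as lower in 6 of 19 alternatives, among them limma-voom (0.0127) and the fit without the shallow libraries (0.0132).

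Of the 18 synthetases, 7 (Dars, Eprs, Iars, Kars, Lars, Qars and Rars) are held together in a large multisynthetase complex in the cytosol. Of these, 3 were lower and 1 was higher in Th17 in each genotype, with a median log2 fold change of -0.19 in WT and -0.11 in KO. Of the 11 others, 7 were lower in WT and 8 in KO, with medians of -0.38 and -0.44. The difference between the 2 sets was not tested. Among all genes tested, 23.6% were lower and 23.5% higher in Th17 in WT, and 26.7% and 26.9% in KO. Of the 10 genes with the promoter core, 7 were lower in Th17 in both genotypes, as were 11 of the 20 with a window and no match. The share lower in both genotypes over all genes tested was 19.9%. Vldlr, which was higher in Th17, holds the core as Trib3, Chac1 and Asns do, whereas Phgdh and Shmt2, among the strongest falls, hold no match in the window.

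**Figure D3:**
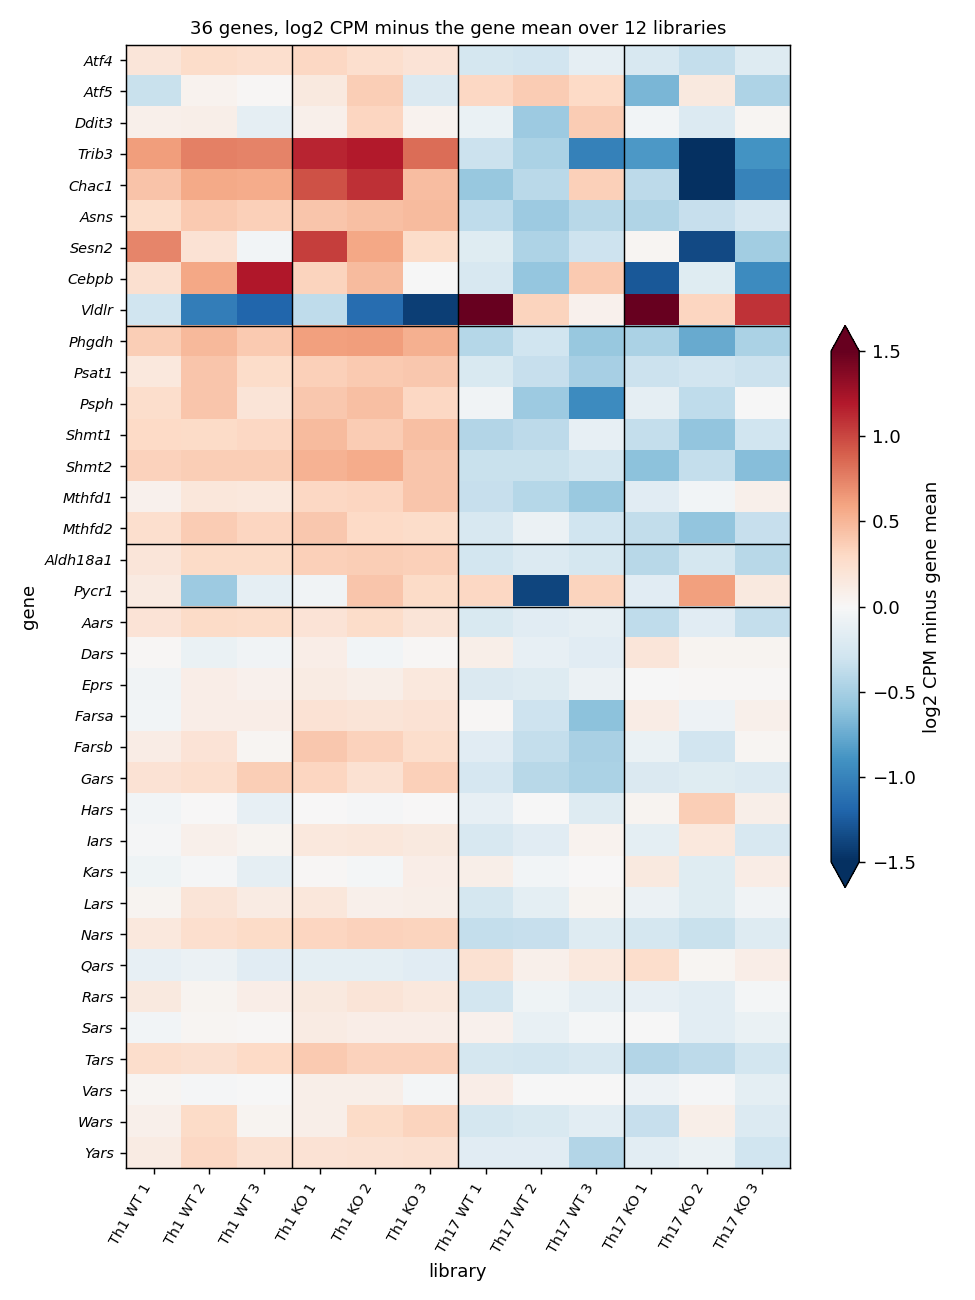
Log2 CPM of the 36 genes (rows, grouped by role) in the 12 libraries (columns, grouped by cell type and genotype), minus each gene's mean over the libraries; red is higher and blue lower, and colours stop at 1.5. The serine and one-carbon block is red in the 6 Th1 columns and blue in nearly all Th17 columns, Vldlr shows the opposite, and low genes such as Pycr1 and Cebpb vary from library to library.

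Few of these genes differed between KO and WT cells, which were compared as unpaired groups although they shared cultures. In Th1 cells none of the 36 passed by edgeR (smallest adjusted p = 0.0674), against 1.69% of all genes higher and 2.92% lower in KO. DESeq2 gave 0 and limma-voom 4. The log2 fold change was above 0 for 31 of the 36, with a median of 0.10 beside -0.002 over all genes. In 14 genes all KO libraries were above all WT libraries, against 11.1% of all genes, and in 0 were they all below, against 13.4%. These were Trib3, Asns, Phgdh, Shmt1, Shmt2, Mthfd1, Aldh18a1, Farsa, Farsb, Iars, Nars, Rars, Sars and Tars. The largest of them was Trib3 (0.35 ± 0.11, adjusted p = 0.0696), followed by Farsb (0.22 ± 0.07, 0.0754) and Mthfd1 (0.22 ± 0.07, 0.0674). Trib3, Mthfd1, Farsb and Phgdh (0.18 ± 0.06, 0.133) passed with limma-voom, with the 2 Th1 groups fitted alone and without the shallow libraries, where their adjusted p ran from 0.0116 to 0.0477.

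In Th17 cells 1 gene was higher and 2 were lower in KO, against 1.81% and 4.02% of all genes. Ranges did not overlap for 4 genes higher and 5 lower in KO (8.94% and 9.59% of all genes). Mthfd1 was higher in all 3 KO libraries than in any WT library (0.35 ± 0.09, adjusted p = 0.0147; edgeR). Shmt2 was lower in all 3 (-0.26 ± 0.08, adjusted p = 0.0365). Atf5, measured on 8 to 111 counts a library, did not overlap between the Th17 groups, and its difference was -0.84 ± 0.22 (adjusted p = 0.0224; edgeR). None of the 3 passed in DESeq2 (adjusted p of 0.055 for Mthfd1, 0.0756 for Shmt2 and 0.0746 for Atf5). Without the shallow libraries Shmt2 passed (adjusted p = 0.042) and Mthfd1 and Atf5 did not (0.149 and 0.074). Leaving out 1 library at a time, Mthfd1 did not pass without Th17 WT 2 or Th17 KO 3 (0.0532 and 0.178), and Shmt2 did not without Th17 WT 1, 2 or 3, Th17 KO 1 or 3, Th1 KO 1 or 2 or Th1 WT 2 (0.0528 to 0.182). Atf5 failed to pass without Th17 WT 1, Th17 KO 1, Th17 WT 2 or Th17 KO 3 (0.132, 0.156, 0.0613 and 0.0612).

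**Figure D4:**
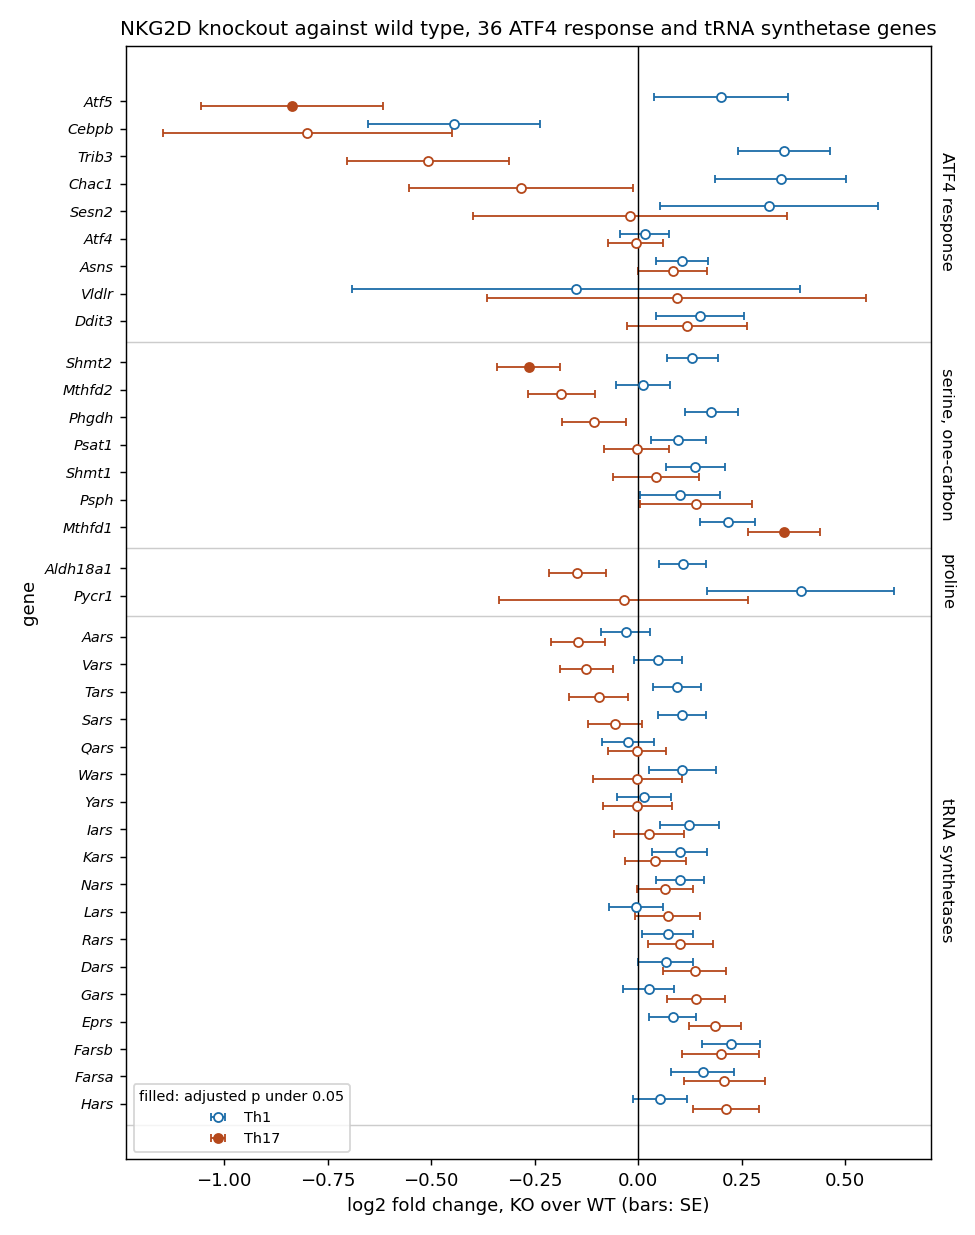
Log2 fold change of KO over WT (horizontal axis, bars show the SE) for the 36 genes in Th1 (blue) and Th17 (orange), ordered by role and by the Th17 value; filled points passed an adjusted p of 0.05. In Th1 31 of 36 points lie right of 0 and none is filled, and in Th17 Atf5, Shmt2 and Mthfd1 are filled.

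Whether the KO difference itself differed between Th17 and Th1 was tested as an interaction, and none of the 36 genes passed by edgeR, against 0.115% of all genes higher and 0.476% lower. DESeq2 gave 0 and limma-voom 1. The smallest adjusted p were those of Shmt2 (-0.40 ± 0.10, 0.0576), Trib3 (-0.86 ± 0.23, 0.0817) and Atf5 (-1.04 ± 0.27, 0.084). All 3 had values above 0 in Th1 and below 0 in Th17, the Trib3 values being 0.35 and -0.51. Without the shallow libraries Shmt2 passed (adjusted p = 0.0348). Atf4 gave an interaction of -0.02 ± 0.09.

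Other genes of the same pathways were counted from lists of known members, beside the shares of all genes that were lower and higher in Th17 (23.6% and 23.5% in WT, 26.7% and 26.9% in KO). Of 23 other tested genes that ATF4 is known to induce or work with, 13 were lower and 3 higher in Th17 WT cells, and 16 were lower and 2 higher in Th17 KO cells. The 3 genes of smallest p in each genotype encode parts of amino acid transporters, though by size Nupr1 fell more (1.96 and 1.98 on the log2 scale). Nupr1 was near the floor in Th17, at 0.791 to 1.04 CPM in WT and at 0 to 1.34 CPM in KO, so the size of its fall is uncertain. Slc7a5, the light chain of the transporter for large neutral amino acids, fell by 0.99 in WT and 1.43 in KO on the log2 scale, its heavy chain Slc3a2 by 0.53 and 0.77, and Slc7a1, a carrier of arginine and lysine, by 0.63 and 0.80. Slc7a5 was also lower in Th17 KO than in Th17 WT cells (-0.35 ± 0.08, adjusted p = 0.0102; edgeR), though not without Th17 KO 1 (0.122), without Th17 WT 2 (0.0821) or with the 2 groups fitted alone (0.068). Jdp2, a repressor of the same protein family as ATF4, was higher in Th1 KO than in Th1 WT cells (0.69 ± 0.18, edgeR adjusted p = 0.0195). It did not pass in DESeq2 (0.097) or with any of 4 single libraries left out (0.0686 to 0.109). Of the 23 genes, Slc7a5 alone was called between KO and WT in Th17, and Jdp2 alone in Th1. Over all genes tested, 4.02% were lower in KO in Th17 and 1.69% were higher in KO in Th1.

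Of 20 other folate, glycine and purine genes tested, 9 were lower and 2 higher in Th17 WT cells, and 11 were lower and 4 higher in Th17 KO cells; without the shallow libraries 4 were higher in WT. Mat2a, which makes S-adenosylmethionine, had log2 fold changes of -0.66 and -0.84, Gart of the purine pathway -0.63 and -0.56, Gcsh of the glycine cleavage system -1.01 and -0.64 and Tyms, thymidylate synthase, -0.58 and -0.72. In KO against WT, 2 of the 20 were higher in Th1 and 3 in Th17 (4 and 0 without the shallow libraries), all of them genes of purine synthesis: Gart in both cell types (0.26 ± 0.07, adjusted p = 0.0179, and 0.32 ± 0.08, adjusted p = 0.0159; edgeR), Pfas in Th1 (0.30 ± 0.06, adjusted p = 0.00248) and Atic and Ppat in Th17 (0.29 ± 0.08 and 0.32 ± 0.09, adjusted p = 0.0202 and 0.0342). Over all genes tested, 1.69% were higher in KO in Th1 cells and 1.81% in Th17 cells. Pfas passed in all 19 alternatives. Gart, Atic and Ppat in Th17 did not pass without the shallow libraries (adjusted p = 0.0759, 0.264 and 0.314) nor without Th17 KO 3 (0.0814, 0.0549 and 0.255) nor with the 2 groups fitted alone (0.0785, 0.0765 and 0.122). DESeq2 called neither Atic (0.0586) nor Ppat (0.11), and limma-voom did not call Ppat (0.0618). Further libraries whose absence ended the Th17 calls were Th17 KO 1 for Gart and Atic (0.0561 and 0.0876), Th17 WT 2 for Atic and Ppat (0.128 and 0.19) and Th17 WT 3 for Ppat (0.0571). Gart in Th1 did not pass without Th1 WT 1, Th1 WT 3 or Th1 KO 3 (0.0903, 0.0643 and 0.101).

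Of the cytosolic synthetases Cars and Mars, for cysteine and methionine, and the complex scaffolds Aimp1, Aimp2 and Eef1e1, 3 of 5 were lower in Th17 in each genotype: Cars (-0.39 and -0.86), Mars (-0.53 and -0.75) and Eef1e1 (-0.33 and -0.41). Eef1e1 did not pass in WT with DESeq2 (0.0691), without the shallow libraries (0.205, which left 2 of 5 lower in WT) or without Th1 WT 2, Th1 WT 3, Th17 WT 2 or Th17 WT 3 (0.0718 to 0.0952), nor in KO without Th17 KO 1 (0.0846). Of 20 genes for tRNA charging inside mitochondria, 3 were lower and 2 higher in WT and 4 lower and 2 higher in KO; without the shallow libraries 1 was higher in each. These shares were below those over all genes. Mars2 was lower by 0.74 and 0.69 on the log2 scale, though in WT not without Th17 WT 1 (adjusted p = 0.0548). Among 16 genes of eIF2 and its control, 5 were lower and 2 higher in WT, and 6 were lower and 3 higher in KO, with the lower share not far above and the higher share below that over all genes. Ppp1r15b, which keeps eIF2 dephosphorylated at rest, was lower (-0.63 and -0.75), Ppp1r15a, its stress-induced counterpart, was higher (0.41 and 0.58), and Eif2ak4, the gene of GCN2, was higher (0.50 and 0.54).

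Of 12 genes of the other arms of the unfolded protein response, 8 were lower in Th17 in each genotype, 2 were higher in WT and 3 were higher in KO. Xbp1, its central factor in secretory cells, had log2 fold changes of -0.73 and -0.93 and the chaperone cofactor Sdf2l1 of -0.56 and -0.78. The sensors Ern1 and Atf6 were higher in Th17 in both genotypes. They were lower in Th17 KO than in Th17 WT cells (-0.37 ± 0.11, adjusted p = 0.0332, and -0.33 ± 0.08, adjusted p = 0.00844, by edgeR). No other gene of the 12 was called between KO and WT in Th17, where 4.02% of all genes were lower in KO. In this KO comparison Atf6 did not pass with the 2 groups fitted alone (0.0526) or without Th17 WT 2 (0.0718). Ern1 did not with DESeq2 (0.0854), limma-voom (0.0547) or the 2 groups alone (0.0854), nor without the shallow libraries (0.274) or without Th17 KO 1, Th17 KO 3, Th17 WT 2 or Th17 WT 3 (0.216, 0.0745, 0.175 and 0.0759). The higher Ern1 of Th17 KO over Th1 KO did not pass without Th1 KO 2 or Th17 KO 3 (0.0563 and 0.0637). Of 12 genes of the sestrin and GATOR branch of nutrient sensing, 3 were higher in each genotype (Sesn3 by 0.52 and 0.69, Wdr59 by 0.71 and 0.55 and Castor1 by 0.84 and 0.64), a share near that over all genes, and 1 was lower in KO. Without Th17 WT 1 the WT calls of Castor1 and Wdr59 did not pass (adjusted p = 0.152 and 0.103). Of 4 other proline genes tested, Pycrl was lower in WT (-0.43, adjusted p = 0.0203; edgeR), though not with DESeq2 (0.0825) or limma-voom (0.0544), nor without Th1 WT 3, Th17 WT 1 or Th17 WT 2 (0.0654, 0.224 and 0.0522).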

How the data were processed

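Poly-A RNA was made into full-length cDNA with a template-switching kit and fragmented by tagmentation, which does not mark strand, and read as pairs, per the labels' protocols. The submitters' processing notes name TopHat2, Bowtie2, featureCounts and GRCm38 (mm10); their versions, the strand setting and the annotation are not given in the sources used here. What the authors deposited are raw read counts for each Ensembl gene, whole and not normalised. GENCODE M21 named 37693 of 39179 IDs (96.2%).

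Counts were scaled by TMM in edgeR 4.0.16, filtered with filterByExpr and tested with the quasi-likelihood F-test on all 12 samples, with Benjamini-Hochberg adjustment over 12189 genes in each of 5 comparisons. The SE was taken as |log2 fold change| divided by the square root of F, and CPM are TMM-scaled. With 3 samples a group the smallest exact permutation p is 0.1. Alternatives were RLE size factors, DESeq2 1.42.0, limma-voom (limma 3.58.1) with quality weights, no low-count filter, only the 2 groups compared, counts without the dominant ID, no shallow libraries and each sample left out. The genes and lists were chosen with earlier results of these data known. From other lists, up to 3 genes of smallest p past the threshold were named per comparison, or the one of smallest p. Genes overlapping on the opposite strand, also Farsb with Sgpp2 and Hars with Hars2, are uncertain. The test was also run on simulated counts, with larger fold changes than most KO differences of these genes. Its outcome is not given and no result here rests on it. R 4.3.3 and Python 3.11.15 were used. Some items that met these rules are not reported here.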

Additional observations from a re-analysis of the deposited data

Results flagged for a closer look

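Cars, the cysteinyl-tRNA synthetase gene, was the one gene of the lists whose KO difference was itself different between Th17 and Th1 cells in the test of that difference (interaction -0.465 ± 0.10 on the log2 scale, edgeR adjusted p = 0.0243). Over all genes tested, 0.115% passed as higher and 0.476% as lower in that test, so a single call among the listed genes does not single out these pathways. Cars was at 65.2, 67.2 and 70.8 CPM in Th1 WT, 78.8, 78.4 and 79.3 in Th1 KO, 51.1, 51.0 and 55.0 in Th17 WT and 44.9, 43.1 and 42.2 in Th17 KO. KO libraries lay above WT in Th1 (0.22 ± 0.06, adjusted p = 0.0325) and below WT in Th17 (-0.25 ± 0.08, adjusted p = 0.0742), without overlap in either. The interaction did not pass in DESeq2 (0.0627), without the shallow libraries (0.0558) or without any of 5 single libraries (0.0636 to 0.103). The higher level in Th1 KO did not pass in DESeq2 (0.164), with no low-count filter (0.0617) or without any one of Th1 WT 1, Th1 WT 2 and the 3 Th1 KO libraries (0.0905 to 0.138).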

How the results depend on the processing

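No difference past the threshold changed direction under the alternatives. Values that had not passed could: Vldlr's interaction, 0.24, was -0.13 without the shallow libraries, and its KO difference in Th17, 0.09, was -0.27. KO against WT in Th1: the count of higher genes, 0, became 4 with limma-voom, with the 2 groups alone and without the shallow libraries, and ran from 0 to 1 over the samples left out. KO against WT in Th17: the 1 higher gene became 0 with DESeq2, the 2 groups alone and no shallow libraries (0 to 2 over samples left out), and the 2 lower became 0 with DESeq2 and limma-voom and 1 with the 2 groups alone and no shallow libraries (0 to 2). Interaction: the 0 lower became 1 with limma-voom, 3 with no filter and 1 without the shallow libraries (0 to 2). Th17 against Th1 in WT: the 2 higher ran from 1 to 2. Causes were not tested. Lower genes in Th17 numbered 19 in WT without Th17 WT 1, and 23 with DESeq2. Over all genes, KO against WT in Th1 gave 206 higher and 356 lower genes, DESeq2 106 and 211, limma-voom 398 and 676 and the 2 groups alone 377 and 545; in Th17 221 and 490 became 99 and 389, 125 and 338, and 90 and 266, and 59 and 260 without the shallow libraries. The interaction gave 14 and 58, and 61 and 146 with no filter. No paired analysis was possible from stated pairs because the labels give no replicate numbers, animal or culture per sample. WT and KO cells were grown in the same cultures, so their libraries may still be paired. In Th1, Sesn2 fell in the order listed in both WT (53.5, 37.3 and 31.1 CPM) and KO (65.8, 48.0 and 38.8), as did Vldlr. Cebpb rose in Th1 WT (8.42, 10.6 and 16.3 CPM) and not in Th1 KO (8.98, 9.87 and 7.11). The KO comparisons treat libraries as unpaired, and the part of shared cultures was not tested. Depth limits Trib3, Chac1, Cebpb, Atf5, Vldlr and Pycr1, whose lowest counts in a library were 3, 2, 6, 8, 11 and 4.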

Other observations

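Lars2, the mitochondrial leucyl-tRNA synthetase gene, was singled out after its values were seen. It was at 4.39 to 39.9 CPM in the 6 Th1 libraries, at 22.7, 161 and 932 in Th17 WT and at 123, 959 and 3.36 in Th17 KO. The highest values, 932 and 959 CPM, were those of the shallow libraries Th17 WT 3 and Th17 KO 2. Its differences between Th17 and Th1, 4.02 in WT and 4.50 in KO on the log2 scale, did not pass (edgeR adjusted p = 0.126 and 0.1).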
